A study of Homo sapiens with 6 samples.

Results

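The genes described here are 10 genes of the endoplasmic reticulum (ER) stress response, out of 33503 genes with a matched transcript: the sensors ATF6 and ATF6B, the transcription factor XBP1, the chaperones and folding enzymes HSPA5, HSP90B1, CALR, PDIA4, DNAJB9 and SDF2L1, and the degradation factor HERPUD1. They were chosen by name and role and not by a threshold, but with earlier results of these libraries known; the measured values in view at that choice were the read estimates and transcript levels of genes and transcripts by clone and doxycycline state. All 10 passed the filter on low counts that left 14162 genes for testing. Their tests are therefore given as a description within a fit over all of those genes.

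The study asked what loss of CDAN1 changes in K562, a human erythroleukaemia cell line; CDAN1 encodes codanin-1, which is mutated in congenital dyserythropoietic anaemia type I. Each of 3 clones carried a doxycycline-inducible shRNA and was kept under puromycin at 2 µg/ml. Clones c1 and c2 carried an shRNA against CDAN1, and clone NT carried a non-targeting shRNA. The induced libraries came from c1, c2 and NT cells given doxycycline at 1 µg/ml for 4 days, and the uninduced libraries from the same clones without it, also labelled day 4. Each combination of clone and state was a single RNA-seq library, 6 in all, so the libraries of a group differ in clone and each of c1, c2 and NT stands for 1 clone. The labels name no separate cultures of a clone, so that the p-values rest on the spread among 6 libraries alone, part of which may be technical.

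The libraries held between 28318555 and 32352246 estimated reads. CDAN1 stood at 16.7 and 29.4 CPM (read counts scaled to library size) in the induced c1 and c2 libraries, which was 46.3% and 53.7% of their uninduced libraries, and at 69.3 CPM in the induced NT library, 112% of its uninduced library. Without doxycycline CDAN1 was at 36.1 CPM in c1 and at 54.8 CPM in c2, against 61.6 CPM in NT. The erythroid markers, globin genes and erythroid factors and receptors, were all detected, 12 of 12, at a summed 17670 and 16670 CPM in the induced and uninduced c1 libraries and 13730 and 12160 CPM in those of c2, against 18380 and 17080 CPM in those of NT. Lymphoid and monocyte or granulocyte markers summed to between 9.01 and 95.02 CPM, with MS4A1 and ELANE at 0. Most of the lymphoid sum was CD3D, at 7.28 to 22.9 CPM, and most of the other sum was LYZ. LYZ had 66.2, 65.7 and 74.7 CPM in the induced c1, c2 and NT libraries, against 89.1, 93.9 and 91.4 CPM in the uninduced ones. Megakaryocyte markers, 4 of 4 past the filter on low counts, differed by clone in their sum. It was 11.4 and 13.3 CPM in c1 and 152 and 163 CPM in c2, against 32.6 and 38.9 CPM in NT. Most of it was ITGA2B, at 11.5 and 13.2 CPM in induced and uninduced c1 and 143 and 153 CPM in those of c2. PPBP, GP9 and PF4 were at 0.0 CPM in induced c1 and at most 0.520 CPM in NT. In bulk RNA, fewer cells of a type and less RNA per cell cannot be told apart.

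As background, unfolded protein in the ER is sensed by the kinases IRE1 (gene ERN1) and PERK (EIF2AK3) and by the membrane-bound factors ATF6 and ATF6B. Under stress, ATF6 moves to the Golgi and is cut by the proteases of MBTPS1 and MBTPS2, which frees a transcription factor. IRE1 excises a short intron from XBP1 mRNA, and the spliced form encodes the active XBP1 factor. Their targets hold chaperones such as HSPA5 (BiP), and PERK acts on translation and through ATF4. HSPA5, HSP90B1, SDF2L1, HERPUD1 and CALR are classical targets of the ATF6 arm, and DNAJB9 (ERdj4) is known as a target of XBP1.

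The ER stress elements of these promoters are shown because they are the sites through which ATF6 and XBP1 act on such genes. Both strands of RefSeq promoters (GRCh38.p14, 250 bases before to 50 after the start) were searched, and all 10 genes had an entry. The element ERSE was searched as CCAAT and CCACG with any 9 bases between them, and stood in 27 of 35116 promoters, or 0.08%. It begins with a CCAAT box, which by itself was found in 34.61% of promoters. The shorter ERSE-II, searched as ATTGG and CCACG with any 1 base between them, stood in 19 promoters, or 0.05%. An ERSE was found in XBP1, HSPA5, HSP90B1 (on both strands) and CALR, and an ERSE-II in HERPUD1 and SDF2L1. Neither was found in the windows of ATF6, ATF6B, PDIA4 or DNAJB9, and the XBP1-type core TGACGTGG, present in 0.73% of promoters, was found in none of the 10. A match is a description of these letters and not a measured binding site. In the lines that follow the fixed letters of each element are in capitals, and each element is written 5′ to 3′ on the gene's own strand, so that elements lying on the opposite strand read as their reverse complement.
XBP1 ERSE, chr22:28800603-28800621: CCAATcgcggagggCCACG
HSPA5 ERSE, chr9:125241391-125241409: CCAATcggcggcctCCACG
HSP90B1 ERSE, chr12:103930216-103930234: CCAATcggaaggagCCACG
HSP90B1 ERSE, opposite strand, chr12:103930321-103930339: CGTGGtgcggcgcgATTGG
CALR ERSE, opposite strand, chr19:12938384-12938402: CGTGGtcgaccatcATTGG
HERPUD1 ERSE-II, chr16:56932025-56932035: ATTGGgCCACG
SDF2L1 ERSE-II, opposite strand, chr22:21642114-21642124: CGTGGaCCAAT

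Per length, in TPM averaged over the 6 libraries, the most abundant of the 10 was CALR at 505 TPM (range 436 to 552), a calcium-binding lectin chaperone. HSP90B1 (GRP94), an ER chaperone of the HSP90 family, followed at 345 TPM (300 to 372), and SDF2L1, a partner of HSPA5 in folding, at 318 TPM (277 to 397). HSPA5 averaged 175 TPM (144 to 192), PDIA4, a protein disulfide isomerase, 107 TPM (89.8 to 129), ATF6B 83.9 TPM (74.0 to 92.0) and XBP1 75.8 TPM (67.1 to 81.6). HERPUD1, a membrane component of the ER degradation machinery, averaged 37.6 TPM (26.1 to 47.3), ATF6 15.7 TPM (13.3 to 18.2) and DNAJB9, a co-chaperone of HSPA5, 8.81 TPM (6.98 to 11.3). In this order the ranges of HSP90B1 and SDF2L1, of PDIA4 and ATF6B, and of ATF6B and XBP1 overlapped, while the other neighbours did not. ATF6B therefore stood above its paralogue ATF6 in every library. The ATF6B values include short entries of 425 to 1176 bases, found only as copies outside the primary assembly. Its place above XBP1 in this order depends on them.

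Over the 6 libraries the highest CPM of each of the 10 genes was at most 1.74 times its lowest. No gene of the 10 was called by edgeR in induced c1 and c2 against all controls, nor in the comparisons of induced with uninduced libraries and of their responses. Without the clone as a block, edgeR called no gene at all in these tests, so CDAN1 was not called either. This ratio was largest for DNAJB9 at 1.74, followed by HERPUD1 at 1.68, and smallest for XBP1 and HSP90B1 at 1.19. It was not taken over all genes tested, so whether it was small for the 10 genes cannot be said. DNAJB9 was the gene whose 3 induced libraries all lay below the 3 uninduced ones, and ATF6B the gene whose induced c1 and c2 libraries lay above all 4 controls. Genes of the 10 moved both ways: SDF2L1, PDIA4 and ATF6B were higher and DNAJB9, HERPUD1 and ATF6 lower in the induced library of each clone.

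**Figure D1:**
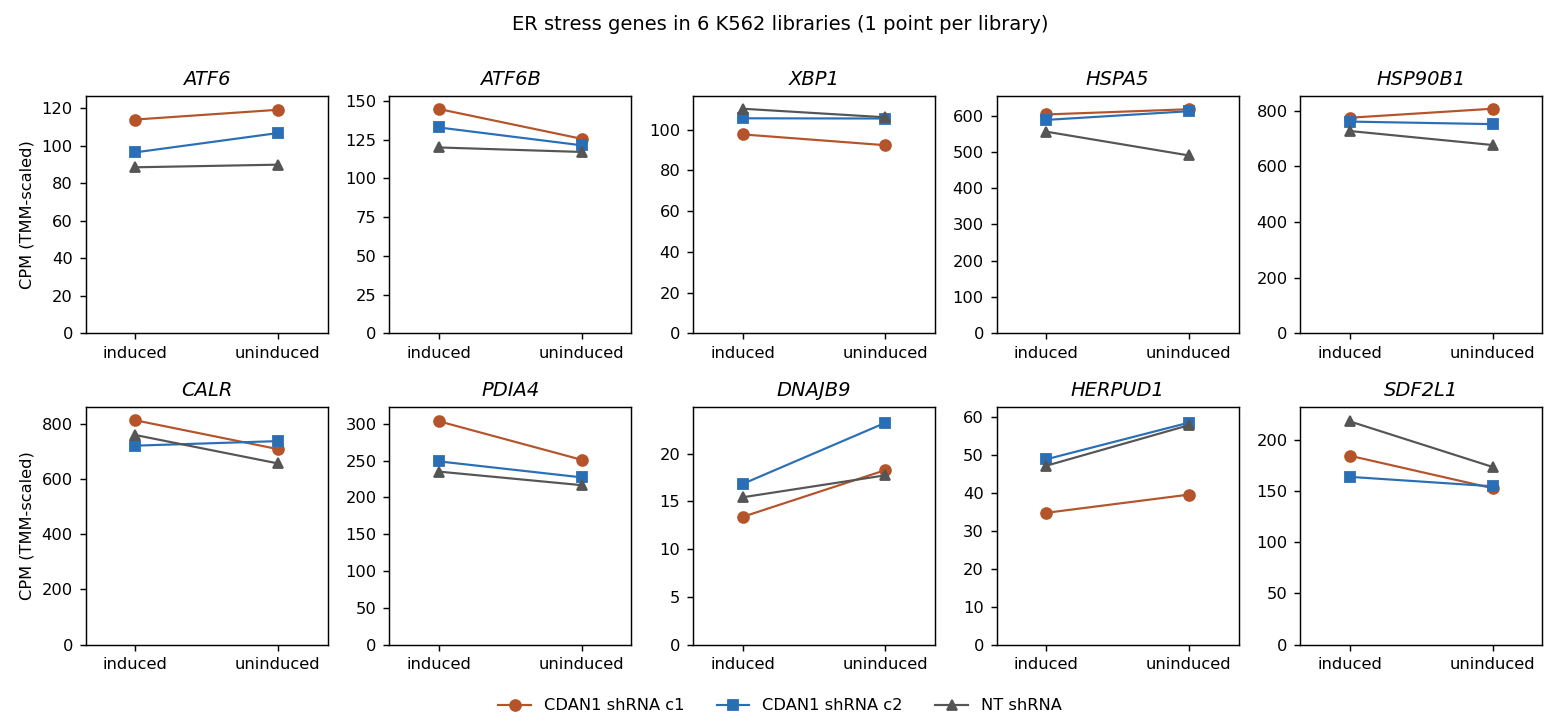
CPM of the 10 genes (vertical axes from 0, 1 panel per gene) in the induced (left) and uninduced (right) library of clones c1, c2 and NT, 1 point per library, with lines joining the libraries of a clone. DNAJB9 lay between 13.4 and 16.8 CPM in the induced libraries and between 17.7 and 23.2 CPM in the uninduced ones, while HERPUD1 and ATF6 were set apart mainly by clone.

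Among the sensors, ATF6 had 114, 96.5 and 88.5 CPM in the induced c1, c2 and NT libraries, against 119, 107 and 89.9 CPM in the uninduced c1, c2 and NT libraries. The groups overlapped, and the order c1, c2, NT was the same in both states. ATF6B had 145, 133 and 120.0 CPM in the induced c1, c2 and NT libraries, against 126, 121 and 117 CPM in the uninduced c1, c2 and NT libraries. ATF6B averaged 139 ± 8.41 CPM (SD, n = 2) in induced c1 and c2, against 121 ± 3.55 CPM (SD, n = 4) over the 4 controls, with no overlap. Genes above all controls in this way, 1 of the 10, made up 4.67% of all genes tested, and genes below all controls, 0 of the 10, made up 4.85%. The fitted log2 fold change of ATF6B in these libraries over all controls was 0.20 ± 0.07 (SE), with an edgeR quasi-likelihood p of 0.0301 before adjustment and 1 after it. The ATF6B estimate was 0.13 ± 0.10 without induced c1, 0.13 ± 0.09 with transcript lengths as an offset and 0.06 ± 0.07 with that offset and the clone as a block. XBP1 had 97.7, 105.6 and 110.3 CPM in the induced c1, c2 and NT libraries, against 92.4, 105.5 and 106.1 CPM in the uninduced c1, c2 and NT libraries, so that its level differed more between clones than between states.

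Of the major chaperones, HSPA5 had 603, 588 and 555.5 CPM in the induced c1, c2 and NT libraries, against 617, 612 and 490.0 CPM in the uninduced c1, c2 and NT libraries. The uninduced NT library was the lowest of the 6. HSP90B1 had 774, 760.3 and 726 CPM in the induced c1, c2 and NT libraries, against 806.5, 751 and 676 CPM in the uninduced c1, c2 and NT libraries, again with uninduced NT lowest. CALR had 814, 722 and 760.5 CPM in the induced c1, c2 and NT libraries, against 709, 738 and 657 CPM in the uninduced c1, c2 and NT libraries. Its induced and uninduced groups overlapped, with c2 lower and c1 and NT higher in the induced state.

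PDIA4 had 303.5, 249.0 and 235 CPM in the induced c1, c2 and NT libraries, against 251, 227 and 217 CPM in the uninduced c1, c2 and NT libraries. It was higher in the induced library of each clone, though the groups overlapped. SDF2L1 had 184, 164 and 218 CPM in the induced c1, c2 and NT libraries, against 153, 154.5 and 173 CPM in the uninduced c1, c2 and NT libraries, with the largest difference in NT. DNAJB9, the least abundant, had 13.4, 16.8 and 15.4 CPM in the induced c1, c2 and NT libraries, against 18.3, 23.2 and 17.7 CPM in the uninduced c1, c2 and NT libraries. Its groups did not overlap, which was true in this direction of 1 of the 10 genes and 3.17% of all genes tested, and in the other direction of 0 of the 10 and 3.19%. In TPM summed over its entries, which allow for transcript length, DNAJB9 stood at 6.98, 8.90 and 9.01 in the induced c1, c2 and NT libraries, against 8.98, 11.3 and 7.72 in the uninduced c1, c2 and NT libraries, and there the groups overlapped. A retained-intron entry of 584 bases held 2.41 TPM in induced NT and 0.0 in uninduced NT. The main coding entry alone had 5.77, 7.56 and 6.6 TPM in the induced c1, c2 and NT libraries. In the uninduced c1, c2 and NT libraries it had 8.1, 10.73 and 7.72 TPM, and these groups did not overlap. HERPUD1 had 34.7, 48.8 and 47.1 CPM in the induced c1, c2 and NT libraries, against 39.5, 58.4 and 57.7 CPM in the uninduced c1, c2 and NT libraries, and c1 was the lowest clone in both states.

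**Figure D2:**
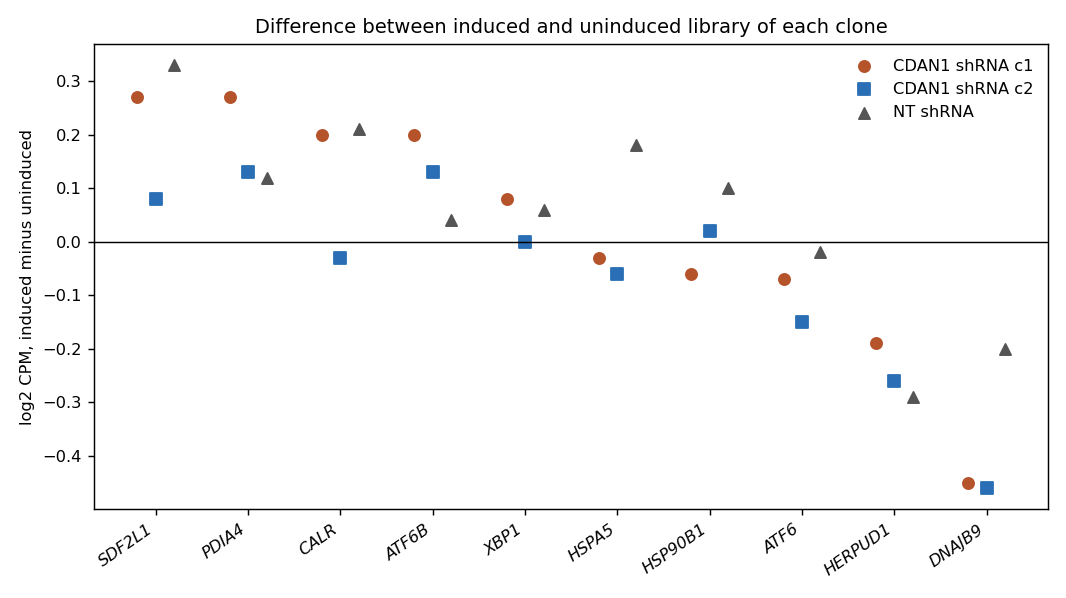
Difference in log2 CPM between the induced and the uninduced library (vertical axis) of clones c1, c2 and NT for each of the 10 genes, 1 point per clone, ordered by the mean over clones. SDF2L1 (0.27, 0.08 and 0.33 in c1, c2 and NT) and PDIA4 stand at the upper end and DNAJB9 (-0.45, -0.46 and -0.20) at the lower end, and HSPA5 is below 0 in c1 and c2 and above 0 in NT.

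Read clone by clone, 4 of the 10 genes (ATF6B, XBP1, PDIA4 and SDF2L1) were higher and 3 (ATF6, DNAJB9 and HERPUD1) lower in the induced library of all 3 clones, XBP1 in c2 by only 0.1 CPM. Over all genes tested, 18.6% were higher and 19.1% lower in all 3 clones, so that 7 of the 10 had the same direction throughout, against 37.7% of all genes. On the log2 scale the difference for DNAJB9 was -0.45 in c1, -0.46 in c2 and -0.20 in NT. For HERPUD1 it was -0.19 in c1, -0.26 in c2 and -0.29 in NT. For SDF2L1 the values were 0.27, 0.08 and 0.33 in c1, c2 and NT. The comparison of doxycycline states took all 3 clones together, and its fitted log2 fold change, induced over uninduced, was -0.38 ± 0.16 (SE) for DNAJB9, -0.25 ± 0.20 for HERPUD1, 0.24 ± 0.12 for SDF2L1, 0.18 ± 0.11 for PDIA4 and 0.13 ± 0.07 for CALR, each with an edgeR adjusted p of 1. With the clone as a block the estimate for DNAJB9 was -0.37 ± 0.09, with an edgeR adjusted p of 0.169, and with transcript lengths as an offset it was -0.18 ± 0.17. That offset averages the lengths of a gene's entries by abundance, so the short retained-intron entry of DNAJB9 enters it. Leaving out 1 library brought the estimate to -0.12 for HERPUD1 and 0.06 for PDIA4 without induced c1, to 0.12 for SDF2L1 without induced NT and to 0.07 for CALR without induced c1. Of the erythroid markers 11 of 12 had a value above 0 in this comparison, with a median of 0.15 and 0 called by edgeR, and their part was not tested.

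The counts of calls were as follows for the comparisons that share the induced c1 and c2 libraries and, in part, their controls. Induced c1 and c2 against all 4 controls called 0 of 14162 genes (0.0%) by edgeR's quasi-likelihood test, 14 by DESeq2 and 0 by limma voom, with 323 genes at an edgeR p under 0.05 before adjustment. Among the 10 genes 0 were called by each tool, and ATF6B and PDIA4 had a p under 0.05 before adjustment. Induced against uninduced c1 and c2 called 0 genes (0.0%) by edgeR, 2 by DESeq2 and 0 by voom, with 207 at an unadjusted p under 0.05 and none of the 10 among them. Doxycycline in all 3 clones called 0 genes (0.0%) by edgeR, 6 by DESeq2 and 0 by voom, with 222 at an unadjusted p under 0.05 and none of the 10 among them. With the clone as a block, edgeR called 5, 183 and 17 genes in these 3 comparisons, or 0.0353%, 1.29% and 0.12%, again with 0 of the 10. At an unadjusted p under 0.05 the blocked fits held 3, 5 and 5 of the 10 genes: ATF6B, PDIA4 and DNAJB9 in each, and HERPUD1 and SDF2L1 in the second and the third. Over all 14162 genes the same blocked fits held 1616, 1903 and 1967 at an unadjusted p under 0.05. In the blocked fit of induced against uninduced c1 and c2, CDAN1 was called, with a log2 fold change of -0.999 ± 0.092 and an edgeR adjusted p of 0.000811.

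The response of c1 and c2 to doxycycline was also set against that of NT. The fitted difference furthest from 0 was that of DNAJB9, at -0.26 ± 0.37 (SE) on the log2 scale (-0.44 to -0.09 leaving out a library of c1 or c2), followed by HSPA5. HSPA5's log2 difference between states was -0.03 in c1 and -0.06 in c2, against 0.18 in NT. The fitted difference of responses for HSPA5 was -0.23 ± 0.12 (SE), with an edgeR adjusted p of 1. HSP90B1 had -0.06 in c1 and 0.02 in c2, against 0.10 in NT. By edgeR 0 of 14162 genes (0.0%) were called in this comparison, with 80 at an unadjusted p under 0.05 and none of the 10 among them. DESeq2 called 5, voom 0, and edgeR with the clone as a block 25 (0.177%), with 0 of the 10 in each. The NT response rests on a single pair of libraries.

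One of the 6 transcript entries of XBP1, called the spliced entry here, was compared with the entry with the most reads, the unspliced form. It lacks the stretch excised by IRE1 and is otherwise identical to the matching part of the unspliced form. The difference is the 26 bases at chr22:28796127-28796152 (GRCh38, minus strand), which can be placed at 7 equivalent positions because the flanking bases repeat. The stretch is shown with 24 bases on either side, in transcript orientation, with the excised bases in capitals.
Unspliced XBP1: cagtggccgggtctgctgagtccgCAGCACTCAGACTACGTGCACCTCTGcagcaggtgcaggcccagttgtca
Spliced XBP1: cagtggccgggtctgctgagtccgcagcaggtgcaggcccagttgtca

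The spliced entry of XBP1 took a larger share of its reads in the induced library of each clone. It held 7.06%, 5.41% and 4.80% of XBP1 reads in the induced c1, c2 and NT libraries, against 3.73%, 3.84% and 3.15% in the uninduced c1, c2 and NT libraries. The 95% Wilson intervals, which cover counting error only, were 6.19 to 8.02, 4.68 to 6.24 and 4.09 to 5.63 in the induced c1, c2 and NT libraries, against 3.08 to 4.52, 3.20 to 4.56 and 2.57 to 3.86 in the uninduced ones. The share averaged 5.76% ± 1.17 in induced and 3.57% ± 0.37 in uninduced libraries (SD, n = 3 each), a difference of 2.18 percentage points. The groups did not overlap, and a two-sided exact permutation test gave p = 0.1, the smallest that 3 against 3 libraries allow. The test takes no account of the pairing by clone. Transcript levels were also in view when the genes were chosen, so its p-value is a description only. Among 26963 transcript entries with a mean of 50 or more reads in genes with several entries, 3.96% had a share that was higher in all 3 induced libraries than in all 3 uninduced ones. The NT difference comes from a single pair of libraries, and the cause of the differences was not tested. In TPM, the spliced entry had 8.61, 7.38 and 6.68 in the induced c1, c2 and NT libraries, against 4.33, 5.30 and 4.09 in the uninduced ones. The entry is 1131 bases long against 1850 for the unspliced one and ends with the coding sequence, so reads from untranslated parts can only be assigned to other entries and the share is not the share of spliced mRNA molecules. The other XBP1 entries were not searched for the excised stretch, so a further entry without it is possible. One of them, a protein-coding entry of 1824 bases, is shorter than the unspliced form by the length of the excised stretch. It held 3.98%, 2.22% and 0.79% of XBP1 reads in the induced c1, c2 and NT libraries. In the uninduced c1, c2 and NT libraries it held 2.35%, 2.41% and 2.20%. Counted together with the spliced entry, the groups would overlap, because induced NT would lie below uninduced c1 and c2. The separation of the groups and the permutation result therefore hold for the spliced entry alone.

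**Figure D3:**
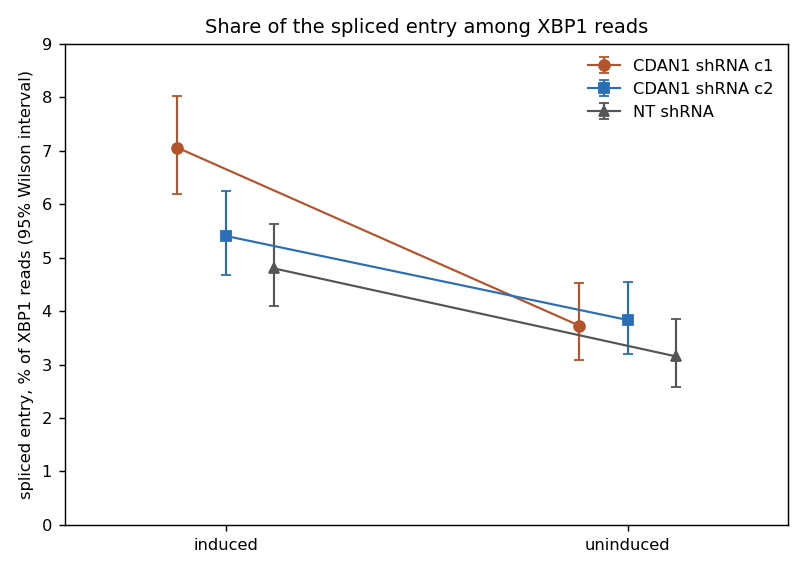
Share of XBP1 reads assigned to the spliced entry in percent (vertical axis, from 0) in the induced (left) and uninduced (right) libraries of clones c1, c2 and NT; bars are 95% Wilson intervals of each library and lines join the libraries of a clone. The 3 induced libraries lie between 4.80% and 7.06% and the 3 uninduced ones between 3.15% and 3.84%.

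The main entry of ATF6 and the single entry of HSPA5 held all reads of their genes, and the main entries of CALR, PDIA4, SDF2L1 and HSP90B1 held at least 97.96% in each library. HERPUD1 was spread over 19 entries, of which the most abundant, a protein-coding entry, held 79.59%, 77.81% and 78.99% of its reads in the induced c1, c2 and NT libraries, against 71.94%, 74.98% and 71.75% in the uninduced c1, c2 and NT libraries. These groups did not overlap either. Of 25 entries of the 10 genes past the minimum of 50 reads, these entries of XBP1 and HERPUD1 were the 2 higher in share in all induced libraries, and 3 were lower (an entry of ATF6B with its copy, and the main entry of DNAJB9), against 3.96% and 3.91% of all such entries. The ATF6B entry and its copy had the same read estimates in each library, so they are the same observation listed under separate entries.

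ATF6B lies at chr6:32115264-32128253 on the minus strand (GRCh38), in the major histocompatibility region, for which the reference holds alternative versions. Its reads were divided among 16 transcript entries, 2 on the primary assembly and 14 copies outside it, and the division differed from library to library. The copies held 56.3%, 13.6% and 55.9% of ATF6B reads in the induced c1, c2 and NT libraries, against 56.5%, 35.7% and 21.2% in the uninduced c1, c2 and NT libraries. The most abundant primary entry and a copy of the same length had 1668 and 1813 reads in induced c1, 3351 and 0 in induced c2 and 1221 and 1221 in induced NT. In the uninduced libraries the same pair had 1285 and 1285 reads in c1, 2052 and 600 in c2 and 2202 and 0 in NT. The division between these entries followed neither clone nor doxycycline state.

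Counting primary entries alone moved the ATF6B values between states. On primary entries alone the log2 difference, induced minus uninduced, was 0.21 in c1, 0.56 in c2 and -0.80 in NT. On all entries it was 0.20 in c1, 0.13 in c2 and 0.04 in NT, and these values are the ones used throughout. The other full-length form, which is longer by a few bases and also has a primary entry and copies, held 13.4%, 8.21% and 14.6% of full-length ATF6B reads in the induced c1, c2 and NT libraries, against 18.9%, 15.9% and 20.2% in the uninduced ones. Here the groups did not overlap, and its primary entry was among the 3 entries named above as lower in all induced libraries.

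**Figure D4:**
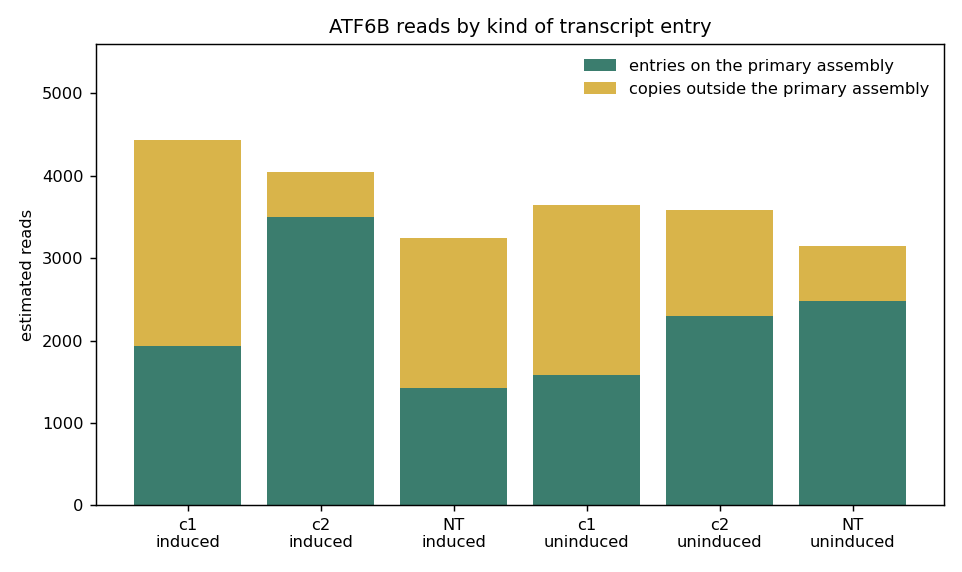
Estimated ATF6B reads (vertical axis, from 0) in each library, induced c1, c2 and NT at the left and uninduced c1, c2 and NT at the right, divided into entries on the primary assembly (lower part of each bar) and copies outside it (upper part). The upper part ranges from 13.6% of reads in induced c2 to 56.5% in uninduced c1, while the bar heights range from 3151 to 4436 reads.

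Between clones some of the 10 genes passed the test. The comparisons of doxycycline states cannot be set against this. Without the clone as a block they leave clone differences in the spread, and edgeR then called 0 of 14162 genes. CDAN1 itself was not called there. In c1, ATF6 was higher and HERPUD1 lower than in NT, and HERPUD1 was higher in c2 than in c1. ATF6 averaged 117 ± 3.73 CPM in c1 and 89.2 ± 0.990 CPM in NT (SD, n = 2 each), with a log2 fold change of 0.39 ± 0.07 (SE) and an edgeR adjusted p of 0.00952. HERPUD1 averaged 37.1 ± 3.39 CPM in c1 and 52.4 ± 7.54 CPM in NT (SD, n = 2 each), with a log2 fold change of -0.50 ± 0.13 and an edgeR adjusted p of 0.0349. In c2, HERPUD1 averaged 53.6 ± 6.82 CPM (SD, n = 2), 0.53 ± 0.13 above c1 on the log2 scale with an edgeR adjusted p of 0.0268. The ATF6 call was lost without the uninduced NT library (0.40 ± 0.10, edgeR adjusted p = 0.0628) and without the induced NT library (0.37 ± 0.10, 0.0734). HERPUD1 in c1 against NT was -0.34 ± 0.15 without the uninduced NT library (edgeR adjusted p = 0.208), -0.40 ± 0.16 without induced c1 (0.123) and -0.59 ± 0.16 without uninduced c1 (0.0514). HERPUD1 in c2 against c1 was 0.42 ± 0.16 without induced c1 (edgeR adjusted p = 0.117) and 0.39 ± 0.16 without uninduced c2 (0.194).

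These counts were close to those of genes at large. In c1 against NT 2 of the 10 genes were called, 1 higher and 1 lower, against 20.7% of all genes tested, 9.6% higher and 11.1% lower; in c2 against NT 0 of 10, against 15.4%; and in c2 against c1 1 of 10, higher, against 20.2%, of which 12.7% higher and 7.57% lower. At an unadjusted edgeR p under 0.05 stood 6, 3 and 3 of the 10 genes in c1 against NT, c2 against NT and c2 against c1, against 4981, 4244 and 4823 of 14162 genes tested. In c2 against NT, DESeq2 and voom called 0 of the 10 as well. With the doxycycline state as a block, edgeR called 5 of 10 in c1 against NT, with HSPA5, ATF6 and PDIA4 higher and HERPUD1 and XBP1 lower, against 28.1% of all genes. In the same blocked fits it called SDF2L1, lower, in c2 against NT (21.7% of all genes), and HERPUD1, higher, with ATF6 and PDIA4, lower, in c2 against c1 (26.7%). Erythroid markers were also called between clones by edgeR at an adjusted p under 0.05: 1 of 12 higher and 1 lower in c1 against NT, 6 of 12 lower in c2 against NT (HBA2 at -1.41 on the log2 scale, HBZ at -0.91, HBA1, EPOR, HBE1 and KLF1) and 8 of 12 lower in c2 against c1. Megakaryocyte marker levels differed between the same clones, as given above. The part of either marker list in the differences of the 10 genes was not tested. A clone's shRNA, its CDAN1 level and its own history cannot be told apart here.

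**Figure D5:**
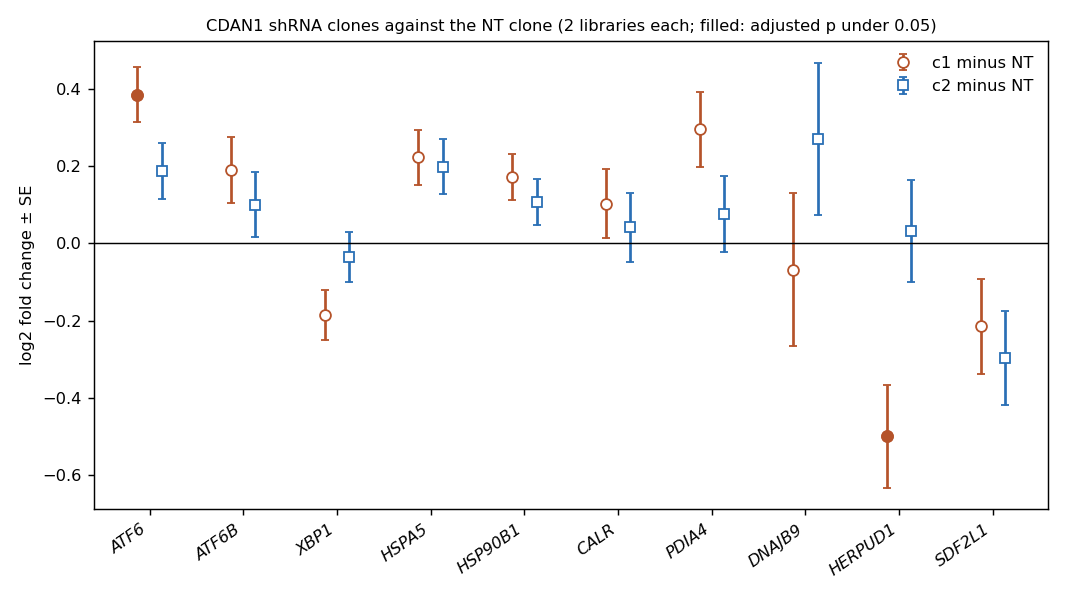
Fitted log2 fold change (vertical axis) of each of the 10 genes in clone c1 over NT (circles) and clone c2 over NT (squares), 2 libraries per clone; bars are standard errors and filled symbols have an edgeR adjusted p under 0.05. ATF6 (0.39) and HERPUD1 (-0.50) in c1 are the filled symbols, and HSPA5 is at 0.22 in c1 and 0.20 in c2.

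Both libraries of c1 lay above both of NT for ATF6, ATF6B, HSPA5, HSP90B1 and PDIA4, that is 5 of 10 against 30.0% of all genes, and below them for XBP1 and HERPUD1, 2 of 10 against 31.2%. For c2 against NT, 4 of 10 lay above (ATF6, ATF6B, HSPA5 and HSP90B1; 32.0% of all genes) and 2 below (XBP1 and SDF2L1; 30.7%). For c2 against c1, 2 of 10 lay above (XBP1 and HERPUD1; 31.2% of all genes) and 3 below (ATF6, HSP90B1 and PDIA4; 28.8%). HSPA5 averaged 610.2 ± 10.2 CPM in c1 and 600.0 ± 16.9 CPM in c2, against 523 ± 46.3 CPM in NT (SD, n = 2 each). Its log2 fold change was 0.22 ± 0.07 in c1 over NT and 0.20 ± 0.07 in c2 over NT, with edgeR adjusted p-values of 0.0607 and 0.102, and without the uninduced NT library it was 0.14 ± 0.07 and 0.10 ± 0.07. PDIA4 was 0.30 ± 0.10 higher in c1 than in NT on the log2 scale, with an edgeR adjusted p of 0.0699, and 0.17 ± 0.08 higher without the induced c1 library. SDF2L1 was -0.30 ± 0.12 in c2 against NT, with an edgeR adjusted p of 0.15, and -0.13 ± 0.12 without the induced NT library.

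HSPA5 was the gene against which likeness of pattern was measured, as the root-mean-square difference of log2 CPM centred on its own mean over the 6 libraries. Of 9131 genes with a mean of at least 10 CPM, the nearest were SRP19, a subunit of the signal recognition particle, EIF4ENIF1, DNAJA2, a cytosolic co-chaperone of the HSP40 family, COG3, a Golgi tethering subunit, and DGLUCY, at 0.0224 to 0.0298. DNAJA2 for instance had 101, 103 and 96.9 CPM in the induced c1, c2 and NT libraries, against 106, 108 and 85.1 CPM in the uninduced c1, c2 and NT libraries. Among the 10 genes HSP90B1 was nearest to HSPA5 at 0.0495, with 0.515% of genes nearer, followed by CALR at 0.0953 (9.57% nearer) and ATF6 at 0.102 (12.6% nearer). HERPUD1 was farthest at 0.345, with 89.6% of genes nearer.

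A link between the ER stress elements and these patterns was not tested. Of the genes with an ERSE, HSP90B1 had 0.515% of genes nearer to HSPA5, CALR 9.57% and XBP1 51.2%. With an ERSE-II, SDF2L1 had 74.5% and HERPUD1 89.6%. With neither element, ATF6 had 12.6%, ATF6B 14.5%, PDIA4 28.3% and DNAJB9 77.0%. The promoters of HSPA5 and of HSP90B1, the nearest of the 10, are printed as the 250 bases before the RefSeq start on the gene's strand (GRCh38.p14). The ERSE matches are in capitals.
HSPA5, chr9:125241344-125241593, minus strand: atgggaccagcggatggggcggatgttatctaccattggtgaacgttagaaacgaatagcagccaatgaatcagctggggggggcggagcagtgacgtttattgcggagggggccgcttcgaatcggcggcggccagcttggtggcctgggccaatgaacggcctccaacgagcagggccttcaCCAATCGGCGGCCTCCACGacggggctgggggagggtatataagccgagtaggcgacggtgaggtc
HSP90B1, chr12:103930160-103930409, plus strand: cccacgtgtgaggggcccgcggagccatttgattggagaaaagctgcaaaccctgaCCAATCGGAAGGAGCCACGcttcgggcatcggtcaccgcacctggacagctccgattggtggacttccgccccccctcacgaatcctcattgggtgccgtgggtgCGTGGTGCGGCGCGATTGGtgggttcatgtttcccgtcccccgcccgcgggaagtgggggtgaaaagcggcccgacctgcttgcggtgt

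Other genes of the pathway were taken from 4 lists of ER genes, and 1 further list held heat shock genes that act outside the ER. No gene of these lists was called by edgeR, with or without the clone as a block, in induced c1 and c2 against all controls or in the comparisons of induced with uninduced libraries and of their responses, where 0.0% to 1.29% of all genes were called. The ER chaperones and folding enzymes (18 of 19 tested) had a median log2 fold change of 0.05 under doxycycline in all 3 clones, with 13 of 18 above 0, and all genes a median of 0.00. CANX, the membrane lectin chaperone and the most abundant of that list, had 1025, 938.5 and 986 CPM in the induced c1, c2 and NT libraries, against 1153, 960.1 and 982.5 CPM in the uninduced c1, c2 and NT libraries. The degradation and translocation list (22 of 22 tested) had a median of -0.04, with 9 of 22 above 0, and VCP, the ATPase that extracts proteins from the ER membrane, kept between 395 and 438 CPM.

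The genes of the PERK and ATF4 list were mostly higher in the induced library of c1 and mostly lower in those of c2 and NT. The list's median log2 difference between states was 0.24 in c1, with 14 of 16 genes above 0, -0.19 in c2, with 2 of 16, and -0.31 in NT, with 1 of 16, while all genes tested had medians of 0.00 in each clone. DDIT4, a stress-induced inhibitor of mTOR signalling, had 304, 320 and 393 CPM in the induced c1, c2 and NT libraries, against 223, 354 and 693 CPM in the uninduced c1, c2 and NT libraries. ATF4 itself had 360.0, 394 and 425.5 CPM in the induced c1, c2 and NT libraries, against 315, 406 and 479 CPM in the uninduced c1, c2 and NT libraries. The uninduced NT library was the highest for both genes. The response of c1 and c2 against that of NT had a median of 0.41, with 15 of 16 genes above 0, and 0 of 16 called by edgeR, 0 of them at an unadjusted p under 0.05, or 6 with the clone as a block. Of all 14162 genes 80 had an unadjusted p under 0.05 in this comparison, or 738 with the block.

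Between clones, members of each list were called. In c1 against NT, the sensor and protease list (7 of 8 tested) had MBTPS1, the protease that first cuts ATF6, higher by 0.27 ± 0.07 and ERN1, which encodes IRE1, lower at -0.62 ± 0.13 on the log2 scale. Of the folding enzymes, DNAJC10 and FKBP14 were higher and PDIA5, UGGT1, PPIB and PDIA3 lower, with PPIB, a prolyl isomerase, at -0.76 ± 0.12. SELENOS was the gene called from the degradation list, lower at -0.43 ± 0.11. In the PERK and ATF4 list ATF4, CHAC1, ATF3 and DDIT4 were lower and NUPR1 higher, with CHAC1, a glutathione-degrading enzyme, at -2.42 ± 0.32. The list's median was -0.34 with 1 of 16 genes above 0. NUPR1 was low in every library, at 2.94 and 1.52 CPM in induced and uninduced c1, against 0.629 and 0.743 CPM in those of NT. In c2 against NT, SDF2 and SEC61G were higher and P4HB, NPLOC4 and PHGDH lower, with P4HB, a disulfide isomerase, at -0.50 ± 0.08. In c2 against c1, PDIA5, ERO1B, PPIB, PDIA3, SELENOS, CHAC1, VLDLR and ATF3 were higher, and MBTPS1, MBTPS2, P4HB, ERO1A, NPLOC4 and PHGDH lower. VLDLR was likewise low in every library, at 0.0 to 1.19 CPM. The proteases MBTPS1 and MBTPS2, which both cut ATF6, were at -0.41 ± 0.07 and -0.56 ± 0.11 in c2 against c1. All of these calls had an edgeR adjusted p under 0.05, in comparisons that called 20.7%, 15.4% and 20.2% of all genes tested.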

How the data were processed

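Salmon 1.5.2 and the build GRCh37 are named in the submitters' processing notes. Per the file headers, each deposited file lists transcripts with lengths, TPM and estimated counts (the read estimates the authors deposited); the sources used here do not give annotation, trimming or strandedness, so antisense overlap cannot be told apart. GENCODE 29 matched 92.3% of 167268 transcripts to 33503 genes, through its gene annotation or, for 3361 transcripts outside the primary assembly, its symbol table; unmatched transcripts held 4.91% to 5.11% of reads. Estimated counts were summed per gene and rounded.

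Genes with a CPM worth 10 reads at the median depth in at least 2 libraries and 15 reads in total entered edgeR 4.0.16 quasi-likelihood fits (R 4.3.3, TMM, prior count 2) with Benjamini-Hochberg adjustment over all genes. Alternatives were RLE factors, no filter, DESeq2 1.42.0, limma 3.58.1 voom, a length offset, other mappings, leaving out libraries, and the clone (or, between clones, the doxycycline state) as a block. The sample titles name the second knockdown clone c2, while its deposited files carry the clone number 3; the titles were followed. Libraries of a clone are the same cells: their deviations from the state means correlated at 0.682, 0.746 and 0.612 for c1, c2 and NT, and between clones at -0.484 to -0.191. Since the deviations of the 3 clones add up to 0 in each state, the values between clones are drawn below 0 by the centring. Members and lists were chosen with earlier results of these data known. Named are the 10 members, CDAN1, list genes called in a comparison or otherwise up to 4 per list with the highest CPM, and the 5 genes nearest to HSPA5; of the lists, MANF had no match.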

Additional observations from a re-analysis of the deposited data

How the results depend on the processing

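In the comparison of induced c1 and c2 with all controls and the 3 comparisons of induced with uninduced libraries or of their responses, 0 of the 10 genes were called under each of the 23, 18, 15 and 23 alternatives run, while genes called at large ranged from 0 to 187 (to 25 for the response comparison), the higher counts coming with the clone as a replicate block. Between clones the number called depended on the setting. In c1 against NT it was 2, against 5 with the doxycycline state as a replicate block, 5 with DESeq2, 5 with block and DESeq2, 6 with block and voom, 1 with unmatched transcripts kept, 0 to 3 leaving out a library and 3 to 5 with block and a library left out. In c2 against NT it was 0, against 1 with the block, 2 with block and DESeq2, 1 with block and voom and 0 to 2 with block and a library left out. In c2 against c1 it was 1, against 3 with the block, 2 with block and DESeq2, 4 with block and voom, 2 with block and length offset, 0 with unmatched transcripts kept, 0 to 2 leaving out a library and 1 to 4 with block and a library left out. Genes called ranged over all alternatives from 1061 to 3995, 806 to 3608 and 1154 to 4062 in these 3 comparisons. Of 644 values of single genes under alternatives, 582 kept direction and side of the threshold, 45 passed it, 9 lost it and 8 turned sign, the last all near 0 under doxycycline in all 3 clones: HSPA5, 0.02, was -0.08 without uninduced NT, -0.01 without induced c1, and -0.05 and -0.05 with block and without uninduced or induced NT; HSP90B1, 0.02, was -0.05, -0.01, -0.03 and -0.02 in the same 4 settings, and with any library left out both ranged up to 0.08. The cause of these shifts was not tested. Alternatives that combine the block with another setting, and the primary assembly alone, were chosen after seeing the data. Without replicates within a clone and state, the depth limits DNAJB9 most, at 410 to 685 reads per library.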

Other observations

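The heat shock genes that act outside the ER were mostly higher in the induced library of NT. Their list is mainly cytosolic but also holds the mitochondrial chaperonins HSPD1 and HSPE1. Their median log2 difference between induced and uninduced libraries was 0.02 in c1, with 7 of 12 genes above 0, and -0.03 in c2, with 4 of 12, against 0.16 in NT, with 11 of 12. HSPA8, the constitutive cytosolic HSP70, had 2697, 2538 and 2865 CPM in the induced c1, c2 and NT libraries, against 2888, 2589 and 2321 CPM in the uninduced c1, c2 and NT libraries, and uninduced NT was the lowest of the 6, as it was for HSPA5. By edgeR 0 of the 12 genes were called for the difference of responses, with 2 at an unadjusted p under 0.05, or 4 with the clone as a block, against 80 and 738 of all 14162 genes. Between clones, DNAJA1 and DNAJB1, HSP40 co-chaperones, were called higher in c1 than in NT, HSPH1 higher in c2 than in NT, and HSP90AB1 and HSPB1 higher and DNAJB1 lower in c2 than in c1, in comparisons that called 20.7%, 15.4% and 20.2% of all genes. The response in NT comes from 1 pair of libraries.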
